A study of Mus musculus with 9 samples.

Results

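The kappa and lambda light chain genes of mouse spleen were described across B cell subsets and 3 IRE1 genotypes. The members were the 7 genes named Igkc, Iglc1, Iglc2, Iglc3, Iglv1, Iglv2 and Iglv3, taken by symbol from the 55385 genes of the count files. The data were CITE-seq of total splenocytes, in which transcripts and antibody tags are read from the same cells, made to learn what an R594C substitution in IRE1 does to spleen immune cells. IRE1 is the endoplasmic reticulum sensor that splices Xbp1 mRNA, which is needed for antibody secretion. The groups were WT with 4 hashtag replicates, heterozygous R594C/+ with 4, and homozygous R594C/R594C with 2, all from spleens sorted with DAPI, a dye of dead cells. No further allele, treatment, strain or age is named in the labels.

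Each B cell makes 1 kind of antibody, built from a heavy chain and a light chain that is either kappa or lambda. Igkc encodes the constant part of every kappa chain, and Iglc1, Iglc2 and Iglc3 encode the constant parts of the lambda chains. A variable segment is joined to them by recombination: Iglv1 is usually used with Iglc1 or Iglc3, and Iglv2 and Iglv3 mainly with Iglc2. Kappa is normally rearranged before lambda, lambda can follow when the first receptor fails or binds self, and mice use far more kappa than lambda. Plasma cells, the antibody factories, fill much of their RNA with light and heavy chain transcripts.

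On assembly GRCm38.p6 Igkc lies on chromosome 6 from 70726435 to 70726754. The other 6 members lie on chromosome 16, with Iglc1 from 19061752 to 19062071, Iglc3 from 19065365 to 19065681, Iglv1 from 19085017 to 19085460, Iglc2 from 19198536 to 19198852, Iglv3 from 19241208 to 19241679 and Iglv2 from 19260403 to 19260844. Each constant member is a constant region segment of 317 to 320 bases and each Iglv member is a variable segment. Iglc2 and Iglc3 are near-identical, as are Iglc1 and the pseudogene Iglc4, so how counting split their reads is uncertain. The libraries count the 3' ends of transcripts, so the constant genes were read directly and the V segments only where reads reached them.

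The 3 captures held 16027 (WT), 17980 (R594C/+) and 17444 (R594C/R594C) barcodes and 74546390, 87953814 and 74538447 RNA UMIs, molecular tags that count original transcripts. After filters 41105 cells remained, 2882 to 7526 per replicate, of which 24250 were B lineage cells. Between 68 and 89 barcodes occurred in both captures of a pair. Each genotype was 1 capture, so genotype, capture and staining cannot be told apart. The labels do not say that replicates are separate animals, and each p-value covers no more than the variation among these samples, which may be technical. Xist RNA was at 1222 to 1377 CPM (counts scaled to a common library total) in WT 2, in R594C/R594C 2 and in all 4 R594C/+ replicates, and at 6.18 to 28.0 CPM in WT 1, WT 3, WT 4 and R594C/R594C 1, so R594C/+ against WT was nearly the same contrast as expressed sex.

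B lineage cells were clustered without antigen receptor genes and named from fixed markers. The classes were follicular-like B cells (13528 cells, 55.8% of the lineage), marginal zone-like B cells (2670), B1-like cells (1642), transitional-like B cells (1717), plasma cell-like cells (852) and germinal centre-like B cells (264). Of the fixed markers the transitional-like subcluster had 7 of 9, the plasma cell-like subclusters 10 of 11, the B1-like subclusters 8 and 9 of 10, the marginal zone-like subclusters 7 and 8 of 10 and the germinal centre-like subclusters 8 of 8. The follicular-like subclusters were the least marked, with 4 to 7 of 8, and a marginal zone-like subcluster of 518 cells was led by early response genes (Ccl4, Egr2, Egr1). A further 3577 cells stayed unnamed. A cell was called when it held at least 5 UMIs of Igkc, Iglc1, Iglc2 and Iglc3 together, which at least 99.2% of the cells of each class did. It was lambda when the 3 lambda genes made up over 50% of them, and kappa otherwise.

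Transitional-like B cells, recent arrivals from the bone marrow, and B1-like cells, the innate-like B cells, held more lambda cells than follicular-like B cells, the main recirculating subset. The lambda share of follicular-like B cells was 5.35% ± 1.15 (SD, n = 10 replicates), from 3.51% to 6.68% with a median of 5.63%, over 729 lambda cells of 13424 called. In transitional-like B cells it was 17.3% ± 3.29, from 13.1% to 22.4% with a median of 17.4% (325 of 1709 cells). All 10 replicates were higher in transitional-like than in follicular-like cells, the ranges did not overlap, and the mean difference was 11.9 percentage points (exact sign-flip permutation test over 10 replicates, two-sided, adjusted over the 4 class comparisons, p = 0.0078).

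In B1-like cells the share was 14.0% ± 8.81 (256 of 1636 cells). It was 7.08%, 34.1%, 4.35% and 6.84% in the 4 WT replicates, 11.4%, 11.5%, 9.13% and 17.7% in the R594C/+ replicates, and 20.1% and 18.1% in the R594C/R594C replicates. WT 2 stood far above the other WT replicates and above every replicate of the other genotypes. The share was above that of follicular-like cells in 9 of 10 replicates by 8.66 points on average (exact sign-flip permutation test, adjusted p = 0.0117), and without WT 2 by 6.55 points (adjusted p = 0.0234).

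Marginal zone-like B cells, which sit at the border of the white pulp, held 7.38% ± 2.77 lambda cells (199 of 2667), from 2.78% to 11.7% with a median of 7.07%. The mean difference from follicular-like cells was 2.03 points, positive in 7 of 10 replicates (exact sign-flip permutation test, adjusted p = 0.0417). It missed the threshold when WT 2 was left out (1.66 points, adjusted p = 0.0833), as it did without any of 6 other replicates. Germinal centre-like cells, where receptors are refined by mutation, held 17 lambda cells of 256 in the 9 replicates with at least 10 called cells, 7.31% ± 7.84, and were not tested.

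**Figure D1:**
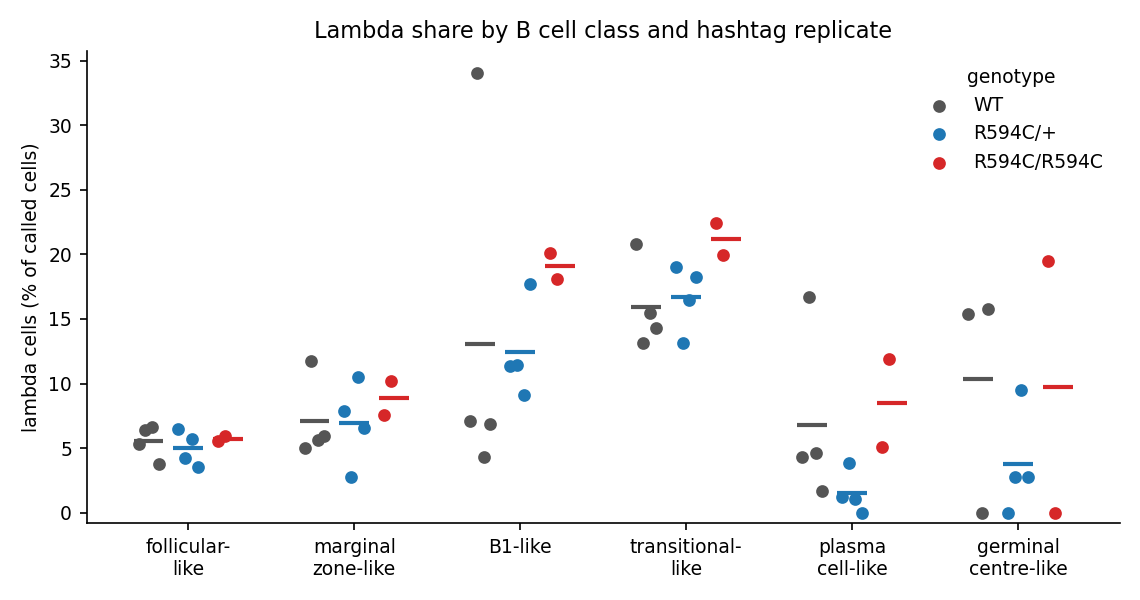
Lambda share of called cells (percent, vertical axis) in each B cell class, with 1 point per hashtag replicate coloured by genotype and a bar at the mean over replicates. Transitional-like cells lie between 13.1% and 22.4%, above the 3.51% to 6.68% of follicular-like cells, and the single high B1-like point is WT 2 at 34.1%.

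Plasma cell-like cells spanned the widest range relative to their mean. Their share was 4.29%, 16.7%, 4.65% and 1.69% in WT, 1.19%, 3.88%, 1.05% and 0% in R594C/+, and 5.06% and 11.9% in R594C/R594C. These shares rest on 41 lambda cells of 852, with 0 of 118 cells in R594C/+ 4. WT 2 and R594C/R594C 2 were the highest, and the remaining 8 lay at 5.06% or below. WT overlapped each of the other genotypes, while all R594C/+ replicates lay under both R594C/R594C replicates. The mean, 5.04% ± 5.29, differed from that of follicular-like cells by -0.313 points (exact sign-flip permutation test, adjusted p = 0.842). This comparison depended on the rule: it was -4.10 points with each cell thinned to 5 light chain UMIs and -9.71 points as a share of summed UMIs, both called, and 2.24 points with lambda at 80% or more and kappa at 20% or less.

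How sharply the light chains were separated differed between classes. In plasma cell-like cells 94.1% of called cells had under 10% lambda among their light chain UMIs and 4.46% had over 90%, while 0.469% lay between 20% and 80%. In follicular-like B cells 29.1% lay between 20% and 80%, in marginal zone-like cells 38.8%, in B1-like cells 54.3% and in transitional-like cells 64.2%. Outside plasma cells the 50% line therefore fell where cells were still frequent, on the slope from the kappa side. A smaller rise followed at the lambda end in 3 classes: from 70% to 80% upward in steps of 10 points the bins held 1.83%, 3.00% and 3.79% of B1-like cells, 1.09%, 1.72% and 1.76% of marginal zone-like cells, and 2.46%, 2.40% and 4.68% of transitional-like cells. With lambda set at 80% or more and kappa at 20% or less, cells in between were left out, most of all in transitional-like and B1-like cells. Of the cells that remained, the lambda shares were 2.59% ± 1.02 in follicular-like, 17.6% ± 7.01 in transitional-like, 13.3% ± 11.8 in B1-like and 4.83% ± 5.35 in plasma cell-like cells. These are not shares of all called cells, of which the 2 bins from 80% upward held 1.02% and 0.879% in follicular-like and 2.40% and 4.68% in transitional-like cells. With each cell thinned to 5 light chain UMIs the follicular-like share was 8.996% and the transitional-like share 25.8%, as shares of summed UMIs they were 17.4% and 33.5%, and with 1 lambda gene above Igkc 4.08% and 11.3%. The level of a share thus depends on the rule, while transitional-like cells were above follicular-like cells by each of these rules.

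**Figure D2:**
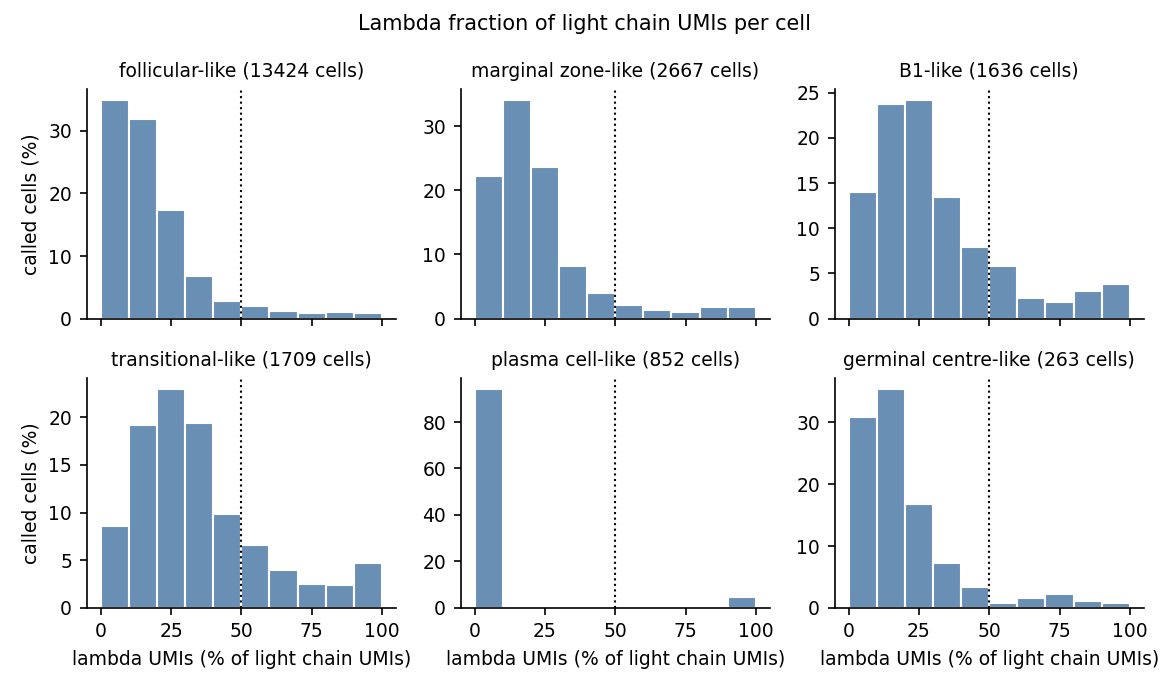
Distribution of the lambda fraction of light chain UMIs per cell (percent, horizontal axis, in bins of 10 points) as percent of called cells in each class (vertical axis). Plasma cell-like cells pile up at both ends, with 94.1% under 10% and 4.46% over 90%. Between 20% and 80% lie 64.2% of transitional-like and 54.3% of B1-like cells, but 29.1% of follicular-like cells, which are most frequent at the kappa end.

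Cells called kappa carried lambda transcripts outside the plasma cell class as well. A kappa follicular-like cell held on average 25.8 UMIs of Igkc, 0.813 of Iglc1, 2.07 of Iglc2 and 1.59 of Iglc3, and a lambda follicular-like cell 7.72, 9.44, 8.26 and 2.59. In kappa transitional-like cells the means were 33.7 for Igkc, 3.09 for Iglc1, 5.63 for Iglc2 and 2.75 for Iglc3. Median RNA UMIs were alike in kappa (2581) and lambda (2533) follicular-like cells. In each capture T cells, which do not make light chains, gave the level of free RNA. An Iglc2 UMI was found in 71.7%, 68.8% and 69.0% of follicular-like cells in WT, R594C/+ and R594C/R594C, against 12.5%, 9.38% and 8.98% of T cells. Iglc3 was found in 69.4%, 67.1% and 68.6% of follicular-like cells against 5.67%, 4.23% and 3.90% of T cells. The median depth was 2790.5, 2562 and 2445 RNA UMIs in follicular-like cells and 3894.5, 3269 and 3401 in T cells. In T cells Iglc1 was the most frequent lambda gene (mean level 109 CPM, against 37.1 for Iglc2 and 15.3 for Iglc3), in the reverse order of kappa follicular-like cells for Iglc1 and Iglc2.

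Igkc itself was a large part of the free RNA. The mean T cell held 4.76 Igkc UMIs (WT), 6.68 (R594C/+) or 2.68 (R594C/R594C), and 94.4%, 99.1% and 88.7% of them had at least 1. By the same call 37.1%, 71.9% and 22.1% of T cells would have passed 5 light chain UMIs, of which 3.09%, 0.237% and 6.40% would have been lambda. Free Igkc RNA therefore differed between the captures, highest in that of R594C/+ and lowest in that of R594C/R594C. Free lambda RNA had another order. Iglc1 was lowest in the R594C/+ capture, with 0.318 UMIs per T cell against 0.475 (WT) and 0.476 (R594C/R594C). By the same measure Iglc2 and Iglc3 were highest in the WT capture, whose T cells were also the deepest. As mean CPM in T cells, Iglc2 was at 39.4 (WT), 36.9 (R594C/+) and 33.1 (R594C/R594C), and Iglc3 at 15.5, 15.9 and 13.9, so for Iglc3 WT was not the highest. Lambda genes made up 12.9% (WT), 6.88% (R594C/+) and 19.3% (R594C/R594C) of the light chain UMIs of T cells.

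The levels of the members followed the classes. Igkc was at 8949 ± 668 CPM in follicular-like cells, 6521 ± 332 in marginal zone-like, 10743 ± 2413 in B1-like, 9810 ± 867 in transitional-like and 413653 ± 34385 in plasma cell-like cells (SD, n = 10), or 41.4% of all RNA UMIs in the last. In T cells it was at 1411 ± 586. The order of the levels was plasma cell-like, B1-like, transitional-like, follicular-like and marginal zone-like, and the SDs of B1-like, transitional-like and follicular-like cells overlapped. Summed counts were compared within replicates with edgeR, adjusted over 9683 genes.

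Against follicular-like cells, all 7 members rose in plasma cell-like cells, where 74% of genes tested were called and 36% were called higher. Igkc rose by a log2 fold change of 7.04 ± 0.08 (SE), Iglc1 by 7.16 ± 0.39, Iglc2 by 3.80 ± 0.13, Iglc3 by 2.93 ± 0.18, Iglv1 by 8.68 ± 0.12, Iglv2 by 5.94 ± 0.39 and Iglv3 by 5.16 ± 0.10 (edgeR adjusted p at most 8e-18). Iglc1 ranged in plasma cell-like cells from 1485 CPM in R594C/+ 4 to 96356 CPM in WT 2 with a median of 22400. These 2 are the replicates with the lowest and the highest lambda share.

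In transitional-like cells 5 of 7 members were called higher, where 30.5% of genes were called and 13.8% were called higher. Iglc1 rose by 1.69 ± 0.32 (edgeR adjusted p = 5.9e-05), Iglc2 by 1.32 ± 0.12 (1.5e-11) and Iglc3 by 0.56 ± 0.18 (0.014), with Iglv1 at 1.10 and Iglv2 at 2.50, the last on 13 UMIs. Igkc differed by -0.03 ± 0.06 (adjusted p = 0.79). Neither Igkc nor Iglv3 (0.54, adjusted p = 0.061) was called.

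In B1-like cells 5 of 7 were called, where 53.1% of genes were called and 26.5% were called higher. Igkc rose by 0.23 ± 0.06, Iglc1 by 1.38 ± 0.32, Iglc2 by 0.96 ± 0.12, Iglc3 by 0.55 ± 0.17 and Iglv1 by 1.00 ± 0.27 (edgeR adjusted p at most 0.0064). Iglv1 was not called without WT 2 (0.63). In marginal zone-like cells 1 of 7 was called, where 40.6% of genes were called and 20.9% were called higher. Igkc fell by 0.40 ± 0.06 on the log2 scale (edgeR adjusted p = 2.9e-06), and the 6 lambda genes stayed under the threshold.

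**Figure D3:**
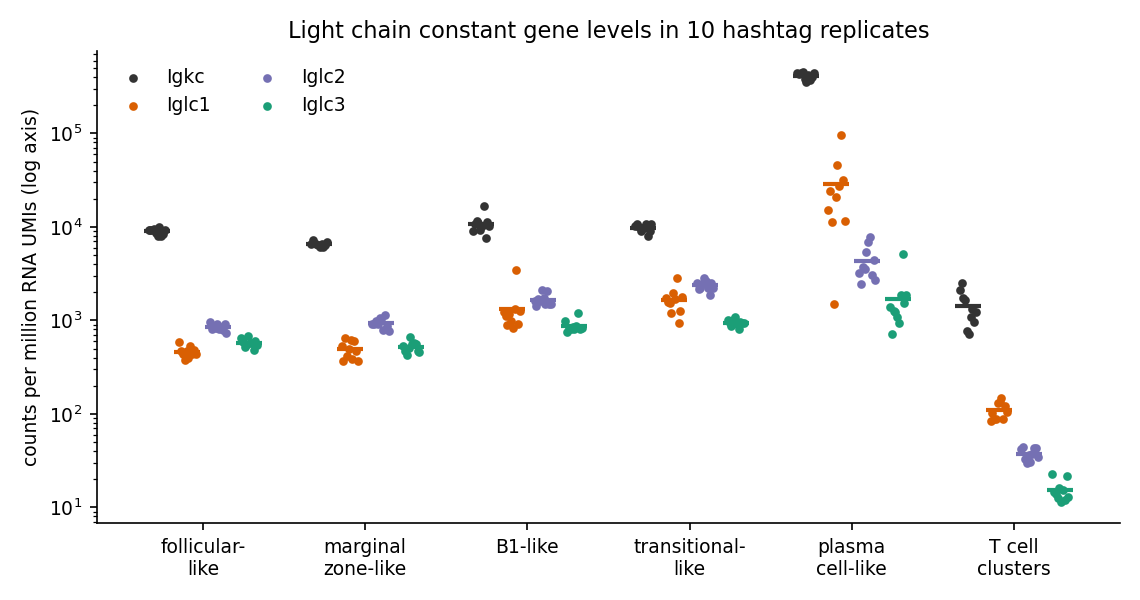
Level of the constant genes Igkc, Iglc1, Iglc2 and Iglc3 (CPM, log axis) by class and in T cell clusters. Each gene has 1 point per hashtag replicate, coloured by gene, and a bar at the mean. Igkc sits at 7979 to 9911 CPM in follicular-like cells and at 358384 to 451793 CPM in plasma cell-like cells, while Iglc1 spreads from 1485 to 96356 CPM there.

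The other genes of the pathway, from fixed lists, were read in the same comparisons. Of 15 genes of antibody assembly and secretion all 15 rose in plasma cell-like cells, with a median log2 fold change of 4.10 against -0.04 over all genes, of which 36% were called higher. Jchain, which links IgM and IgA units, rose by 9.46, Xbp1, the transcription factor spliced by IRE1, by 5.90, and the disulfide isomerase gene Txndc5 by 5.83. Jchain, Xbp1, Txndc5 and Mzb1 of this list are also plasma cell markers that named the class, so their rise follows from the naming. Of 13 receptor partners 3 rose (Ighm by 6.64, Cd81 by 1.95, Blnk by 0.34) and 10 fell. Among these Ighd, the IgD heavy chain gene and a marker used to name the follicular-like class, fell by 5.31. In B1-like cells 11 of the 15 assembly genes rose and 0 fell, with a median of 0.49 against 0.00 over all genes, of which 26.5% were called higher.

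In transitional-like cells 0 of 10 receptor signal genes rose and 6 fell, with a median of -0.74 against 0.00 over all genes, of which 30.5% were called and 13.8% were called higher. Myc, a growth regulator, fell by 1.24, and Nr4a1, a reporter of receptor signalling, fell by 0.86. Of the surrogate light chain and recombination genes 4 of 10 passed the filter, and Vpreb3, which is among the transitional markers, was higher by 1.22.

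The R594C alleles were tested next, as the question the study was built on. Over the 10 replicates the lambda share changed per R594C allele by 0.0134 points in follicular-like, 0.736 in marginal zone-like, 2.48 in B1-like, 2.37 in transitional-like and -0.0405 in plasma cell-like cells. None passed the test (exact permutation test of the correlation with allele number over 3150 assignments, two-sided, adjusted over 5 classes, p = 0.987, 0.931, 0.931, 0.448 and 0.987). The trend was not shown to differ between any class and follicular-like cells, with 0.390 as the lowest adjusted p of those 4 exact permutation tests.

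In transitional-like cells the shares were 20.8%, 13.1%, 15.4% and 14.3% in WT, 18.99%, 13.1%, 16.5% and 18.3% in R594C/+, and 22.4% and 19.9% in R594C/R594C. The R594C/R594C values were among the highest 3, and WT 1 lay between them. After subtraction of the free RNA measured in T cells the slope was 2.98 points per allele (exact permutation test, adjusted p = 0.0206), and without WT 1 it was 3.36 (adjusted p = 0.0476). In B1-like cells the slope without WT 2 was 6.49 (exact permutation test, adjusted p = 0.0119), and among the 6 replicates high in Xist it was -7.98. The latter slope is fixed by R594C/R594C 2 against WT 2 alone, the replicate with the highest B1-like share. The calls of the transitional-like and B1-like trends thus each changed with 1 WT replicate.

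For plasma cell-like cells the WT mean share was 6.82% ± 6.69 (SD, n = 4), that of R594C/+ 1.53% ± 1.65 (n = 4) and that of R594C/R594C 8.49% ± 4.85 (n = 2). The R594C/+ mean was lower than the WT mean by 5.29 points (exact permutation test, p = 0.0571, where 0.0286 is the smallest possible), and the R594C/R594C mean was higher by 1.67 points (exact permutation test, p = 0.8, smallest possible 0.0667). The groups overlapped with WT in both comparisons.

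By genotype, 0 of 48 tests of a member in a class passed edgeR, 8 had an unadjusted p under 0.05, and DESeq2 also called 0. The tests share replicates, and the share of all genes under that unadjusted limit is not set beside the 8. No excess is therefore read from it. The share of all genes called was 0.22% and 0.344% in follicular-like cells (R594C/R594C and R594C/+ minus WT), 0.0927% and 0.22% in marginal zone-like, 0.172% and 0.103% in B1-like and 0.262% and 0.131% in plasma cell-like cells. Igkc in plasma cell-like cells came nearest. It was at 420774, 370120, 397482 and 444677 CPM in WT, at 438220, 437437, 438371 and 451793 in R594C/+, and at 379276 and 358384 in R594C/R594C. R594C/R594C lay under all R594C/+ replicates and overlapped WT through WT 2, which had the highest lambda share.

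The log2 fold change of Igkc in plasma cell-like cells was -0.27 ± 0.06 for R594C/R594C minus WT (edgeR adjusted p = 0.07) and 0.17 ± 0.05 for R594C/+ minus WT (adjusted p = 0.442). The first passed without WT 2 (-0.31, edgeR adjusted p = 0.0221), without R594C/R594C 1 (-0.34, 0.0419), with doublets kept (-0.27, 0.0034), with hashtags called by margin (-0.33, 0.0016) and with no filter on low genes (-0.24, 0.0294), and its adjusted p over all alternatives ran from 0.0016 to 0.529 (0.323 with DESeq2). The second passed with doublets kept (0.20, 0.0105) and with no filter (0.20, 0.0241). In marginal zone-like cells Iglc2 was at 0.25 for R594C/R594C minus WT (edgeR adjusted p = 0.906) and at 0.39 without WT 2 (adjusted p = 0.0063).

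Of the pathway lists, 3 genes passed by genotype, all in R594C/+ minus WT. In follicular-like cells Jchain rose by 0.56 ± 0.07 (edgeR adjusted p = 2.2e-05) and Ighm, the IgM heavy chain gene, by 0.17 ± 0.04 (adjusted p = 0.0358). Both are abundant in plasma cells, and free Igkc RNA was also highest in the R594C/+ capture; its part in these values was not tested. In plasma cell-like cells Cd69, an early activation gene, rose by 0.57 ± 0.11 (edgeR adjusted p = 0.0472).

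Which lambda constant gene a lambda cell used was read from the gene with most UMIs. Over the named classes 709 of 1512 lambda cells (46.9%) used Iglc1, 692 (45.8%) Iglc2 and 111 (7.34%) Iglc3, and 55 cells were tied. Iglc1 led in follicular-like cells (351 of 697) and in plasma cell-like cells (37 of 41), and Iglc2 led in B1-like (140 of 247) and transitional-like cells (173 of 315). In B1-like cells of WT 2 Iglc1 was used by 43 of 63 cells (68.3%). In the other B1-like replicates with at least 10 such cells it was used by 7.5% to 36.8%.

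Among lambda follicular-like cells Iglc1 was used by 59.5%, 50.7%, 54.3% and 69.7% in WT, by 57.4%, 60.0%, 52.1% and 55.0% in R594C/+, and by 39.0% and 45.4% in R594C/R594C. Both R594C/R594C replicates lay under all 8 others. Iglc2 was used by 31.0%, 43.3%, 32.9% and 27.3% in WT, by 40.4%, 32.5%, 42.3% and 45.0% in R594C/+ and by 47.3% and 43.3% in R594C/R594C, where the groups overlapped.

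Per allele Iglc1 changed by -7.35 points (exact permutation test, p = 0.0254, adjusted over the 3 genes 0.0548) and Iglc2 by 5.92 points (p = 0.0365, adjusted 0.0548). Both missed the threshold after adjustment. They passed it without WT 2 (-9.07 and 7.65, exact permutation test, adjusted p = 0.0167 for each) and without R594C/+ 2. Iglc3 changed by 1.43 points (adjusted p = 0.494). Among the 6 replicates high in Xist the slopes were -2.68 for Iglc1 and -0.0106 for Iglc2, and among the 4 low in Xist -11.1 and 8.45. The slopes of the high set are fixed by R594C/R594C 2 against WT 2 alone, since the R594C/+ replicates lie at the middle. In the low set R594C/R594C 1 is the only replicate with the allele. No difference by expressed sex can be read from these slopes.

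**Figure D4:**
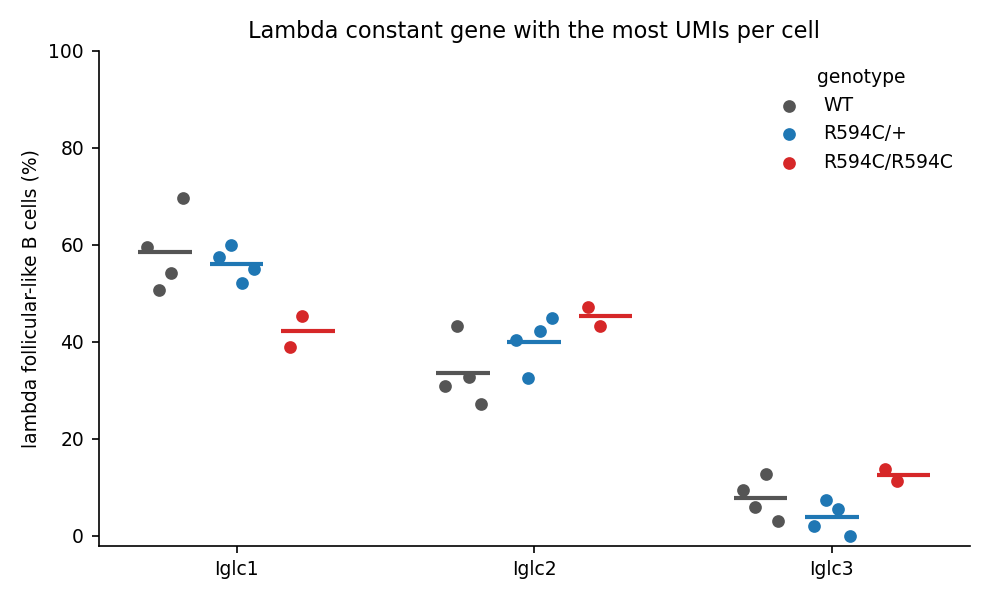
Share of lambda follicular-like B cells (percent, vertical axis) whose main constant gene was Iglc1, Iglc2 or Iglc3, with 1 point per hashtag replicate coloured by genotype and a bar at each genotype's mean. The R594C/R594C replicates use Iglc1 in 39.0% and 45.4%, under the 50.7% to 69.7% of the other replicates.

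The V segments were read most often in plasma cell-like cells. All 37 Iglc1 plasma cells held Iglv1 UMIs and all 4 Iglc2 plasma cells held Iglv2 UMIs. Iglv1 was also found in 641 of 811 kappa plasma cells (79.0%), and over replicates its level did not follow that of Iglc1: R594C/+ 4, with Iglc1 at 1485 CPM, had Iglv1 at 847 CPM, and WT 2, with Iglc1 at 96356 CPM, had it at 1174 CPM. Outside this class reads reached the segments rarely: Iglv1 was found in 35 of 351 Iglc1 follicular-like cells (9.97%), 10 of 284 Iglc2 cells (3.52%) and 181 of 12695 kappa cells (1.43%). Iglv2 was found in 0 of 351 Iglc1 cells, 6 of 284 Iglc2 cells and 5 of 12695 kappa cells. No lack of a segment can be read from these few UMIs.

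By heavy chain class, IgA cells held 21 of the 41 lambda plasma cells. Of 60 IgA plasma cells 21 were lambda (35.0%, exact binomial 95% interval 23.1% to 48.4%, counting error only), all 21 with Iglc1. Of 526 IgM plasma cells 13 were lambda (2.47%) and of 266 IgG plasma cells 7 (2.63%). The 21 cells came from few replicates: 9 from WT 2, 9 from R594C/R594C 2, 2 from R594C/+ 2 and 1 from WT 3. WT 2 and R594C/R594C 2 also had the highest IgA shares among plasma cells, 24.2% and 14.7%, against 1.27% to 6.98% in the rest. In WT 2, 8 of the 9 cells held at least 10 UMIs of a heavy chain V segment, and in all 8 it was Ighv1-78. In R594C/R594C 2 none of the 9 cells held as many. Among kappa IgA plasma cells Ighv1-78 led in R594C/+ 1 and R594C/+ 3, with 2 of 3 such cells each, and in no other replicate. No test was made over cells, since cells of 1 replicate share their source.

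Lambda and kappa follicular-like cells were then compared within each replicate. Outside the kappa and lambda loci 81 of 9899 genes passed edgeR (0.818%), 12 higher and 69 lower in lambda cells, and 14 of 169 antibody tags (8.28%), 2 higher and 12 lower. The members' own folds follow from the call and are given as a description: Igkc -1.80, Iglc1 3.57, Iglc2 1.93, Iglc3 0.58 and Iglv1 2.30 on the log2 scale.

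Gm30211 showed the lowest fold. It is a long noncoding RNA gene on chromosome 6 from 70729213 to 70751690 (GRCm38.p6), which starts 2458 bases past the end of Igkc. Its level was 43.9 ± 30.3 CPM in lambda and 104 ± 10.6 CPM in kappa follicular-like cells, a log2 fold change of -1.34 ± 0.15, lower in 9 of 10 replicates (edgeR adjusted p = 6.7e-17). The exception was WT 4, at 126 CPM from 13 UMIs in 34 lambda cells. As background, recombination past the kappa constant gene removes it in many lambda cells.

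The difference was seen in the other classes too. Gm30211 was at 24.2 ± 13.0 CPM in lambda and 86.2 ± 15.1 in kappa marginal zone-like cells (lower in 8 of 8 replicates with at least 10 lambda cells, exact sign-flip permutation test, adjusted p = 0.0117). It was at 88.1 ± 38.8 and 134 ± 19.3 in transitional-like cells (lower in 9 of 9, exact sign-flip permutation test, adjusted p = 0.0117). In B1-like cells it was at 39.6 ± 33.6 and 84.3 ± 20.7 (lower in 6 of 7, adjusted p = 0.031 by the same exact permutation test). The B1-like exception was WT 2 at 110.0 CPM in lambda cells, and the B1-like call was lost when a R594C/+ or R594C/R594C replicate was left out. With 6 replicates left and WT 2 opposite, the exact test could not pass, so this loss follows from the number of replicates. WT 1, WT 3 and WT 4 held under 10 lambda B1-like cells and were not in this test, so leaving them out changed nothing.

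**Figure D5:**
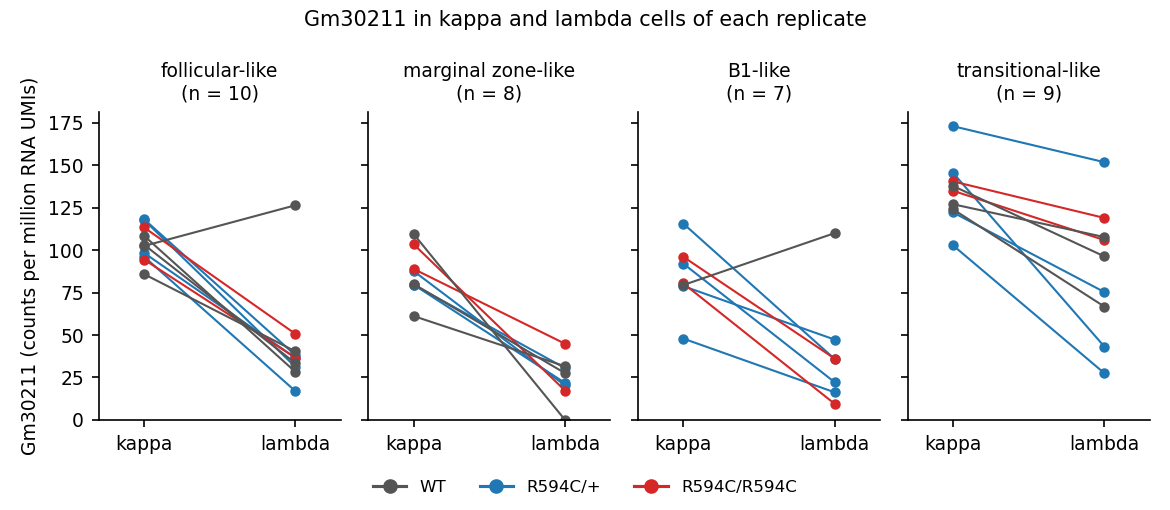
Level of Gm30211 (CPM, vertical axis) in kappa and lambda cells of each class, with a line, coloured by genotype, joining the values of each hashtag replicate. Nearly all lines fall from kappa to lambda, with WT 4 in follicular-like and WT 2 in B1-like cells as exceptions.

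Among the other genes lower in lambda follicular-like cells were Itgb7, the integrin beta chain of gut homing (-0.75 ± 0.15, lower in 10 of 10 replicates), the sulfotransferase gene Chst10 (-1.18 ± 0.27, 10 of 10), the lipid droplet gene Hilpda (-0.76 ± 0.16, 9 of 10) and Gm37176 (-0.76 ± 0.20). The chemokine gene Ccl4 (-0.71 ± 0.15), the lysosomal enzyme gene Hexa (-0.69 ± 0.19), the nuclear receptor gene Nr4a2 (-0.64 ± 0.13), Gm42870 (-0.61 ± 0.12) and Grasp (-0.55 ± 0.15) were lower too. Each passed edgeR at an adjusted p of at most 0.039. Gm30211, Hilpda, Itgb7 and Fam129c were called under all 15 alternatives run for them, and the others lost the call in at least 1.

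Higher in lambda cells were Agbl1 (3.37 ± 0.77, higher in 6 of 10 replicates), Gm48887 (2.63 ± 0.71, 7 of 10) and Gm16675 (1.87 ± 0.52, 7 of 10). These were scarce, at means of 4.81, 5.74 and 7.95 CPM in lambda cells, each with an SD above its mean. Also higher were the secreted nuclease gene Dnase1l3 (1.42 ± 0.36, 7 of 10), Cd93, a surface receptor of immature B cells (1.40 ± 0.32, 7 of 10), and the scaffold gene Akap12 (1.25 ± 0.29, 6 of 10). Fam129c (1.01 ± 0.23, 10 of 10), Phlda1 (0.81 ± 0.23, 10 of 10), Leprotl1 (0.63 ± 0.18, 9 of 10) and the stress factor gene Atf3 (0.57 ± 0.13, 8 of 10) rose as well (edgeR adjusted p at most 0.047). Of the transitional B markers 1 of 7 tested rose (Cd93), with a median of 0.42 against -0.03 over all genes. Tifa was at 0.88 (adjusted p = 0.355), Sox4 at 0.52 (0.803) and Vpreb3 at -0.12 (0.771, higher in 3 of 10 replicates). The CD93 antibody tag was at 0.07 (edgeR adjusted p = 0.949, higher in 3 of 10). Whether transitional cells within the follicular-like class moved these values was not tested.

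Of the receptor signal genes 0 of 10 rose and 3 fell: Cd83 by 0.24 ± 0.05, the homing receptor gene Ccr7 by 0.23 ± 0.05 and Nr4a1 by 0.17 ± 0.04, with a median of -0.16 against -0.03 over all genes, of which 69 of 9899 fell. Nr4a1 kept its call in 6 of 10 fits that left out a replicate (not without R594C/+ 2, R594C/+ 3, WT 2 or WT 4), and Ccr7 and Cd83 in all 10. Of 13 receptor partners Fcmr, the receptor for IgM, rose by 0.22 ± 0.05, and 0 fell. No gene of the light chain transcription, assembly or recombination lists passed edgeR in this comparison.

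On the surface of lambda follicular-like cells CD43 (0.36 ± 0.07, higher in 10 of 10 replicates) and CD24 (0.37 ± 0.08, 9 of 10) were higher. CD24 is a surface protein that is high on immature B cells. The B cell form of CD45 (CD45R_B220, -0.34 ± 0.05), a tag listed as Integrin (-0.34 ± 0.06), the complement receptors CD21_CD35 (-0.26 ± 0.05), the receptor subunit CD79b (-0.26 ± 0.05) and CD200 (-0.27 ± 0.06) were lower (edgeR adjusted p at most 0.0045). With no replicate block 0 tags were called. Without WT 2 the calls of CD21_CD35, CD79b and CD200 were lost, and with the 80% and 20% rule so were these and Integrin, whereas CD43, CD24 and CD45R_B220 passed in both. The tags for immunoglobulin chains did not pass: IgM was at -0.11 (adjusted p = 0.611) and IgD at -0.15 (adjusted p = 0.169).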

How the data were processed

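CITE-seq was measured in 3 captures, 1 per genotype, with 10 hashtag replicates. The authors deposited raw UMI counts per gene, antibody tag and hashtag. Cell Ranger 5.0.0 wrote the matrices, per the file headers. The tools STAR and Seurat 3.1.4 and the build mm10 are listed without a role, per the submitters' processing notes. How reads matching several genes were counted is not given in the sources used here.

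A barcode was dropped under 200 genes or over 10% mitochondrial UMIs. HTODemux of Seurat 5.3.0 (quantile 0.99) assigned hashtags, leaving 12759, 15344 and 15502 single cells in WT, R594C/+ and R594C/R594C. A nearest-neighbour score against simulated doublets marked pairs within 1 hashtag, and 5.45%, 5.42% and 6.27% of single cells were removed. The share expected was 3.38%, 4.10% and 9.97%, so some may remain. Cells were clustered (2000 variable genes, 30 components, 20 neighbours, Leiden resolution 1.5; scanpy 1.11.5, leidenalg 0.10.2) and named from markers.

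Counts were summed per replicate, with at least 10 cells. CPM is the count over the replicate's RNA UMIs, scaled to a fixed total. Shares were tested by exact permutation (scipy 1.17.1), genes by edgeR 4.0.16 (TMM, filterByExpr, robust quasi-likelihood, Benjamini-Hochberg at 0.05), with DESeq2 1.42.0 as an alternative. Classes and light chains were compared with replicate as a block. Scripts were tested on simulated data. The members and lists were chosen with earlier results of these data known. Named genes were the members, the 10 highest and 10 lowest folds called between lambda and kappa cells, at most 5 tags in each direction, tags against immunoglobulin, and the 5 genes most like Igkc and the lambda sum. Positions are from the RefSeq table of GRCm38.p6. Alternatives were other light chain rules, doublets kept, another hashtag rule, no filter, DESeq2, other scalings, a replicate block and each replicate left out. The comparison of Gm30211 by class, the rule of 1 lambda gene above Igkc, the splits by Xist and expressed sex in the fit were chosen after seeing the data. Python 3.11.15 and R 4.3.3 were used.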

Additional observations from a re-analysis of the deposited data

Results flagged for a closer look

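In 9 of 63 groups of 4 replicates tested, the highest or lowest replicate stood farther from the others than Dixon's 95% limit, where chance flags about 1 in 20 groups. The groups share replicates and genes, so they are not independent.

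WT 2 gave 7 of them. Its lambda share was 34.1% in B1-like cells, against 4.35% to 7.08% in the other WT replicates, and 11.7% in marginal zone-like B cells, against 5.0% to 5.97%. IgA cells made up 24.2% of its plasma cells, against 1.69% to 4.65%. In its B1-like cells Iglc1 was at 3431 CPM (others 924 to 1309), Iglc2 at 2047 CPM (1484 to 1514) and Iglc3 at 1213 CPM (806 to 865). In its plasma cell-like cells Iglc3 was at 5098 CPM, against 1532 to 1855. WT 2 was also the single WT replicate high in Xist.

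Igkc in plasma cell-like cells of R594C/+ 4 was at 451793 CPM, above 437437 to 438371 in the other R594C/+ replicates, and this replicate held 0 lambda plasma cells. Iglc3 in transitional-like cells of WT 1 was at 811 CPM, under the 939 to 965 of the other WT replicates.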

How the results depend on the processing

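The number of genes called moved with the settings. Between lambda and kappa follicular-like B cells 81 genes were called in the analysis reported, 37 with DESeq2, 213 with no filter on low counts and 9 with no replicate block, and antibody tags fell from 14 to 3 with the 80% and 20% rule and to 0 with no replicate block. For R594C/+ minus WT, follicular-like cells gave 36 genes, 55 with no filter and 56 with expressed sex in the fit. Marginal zone-like cells gave 19, 41 with no filter and 35 with doublets kept. B1-like cells gave 9, 20 with no filter and 5 with expressed sex, and plasma cell-like cells 9 and 43 with no filter. For R594C/R594C minus WT, marginal zone-like cells gave 8 genes, 13 with no filter and 5 with DESeq2. B1-like cells gave 15, 78 with no filter and 26 with doublets kept, and plasma cell-like cells 18 and 60 with no filter. The cause was not tested. Leaving out each replicate gave, for R594C/+ minus WT, 27 to 44 genes in follicular-like, 16 to 31 in marginal zone-like, 5 to 10 in B1-like and 4 to 12 in plasma cell-like cells. For R594C/R594C minus WT it gave 13 to 25, 2 to 12, 4 to 51 and 8 to 37. Lambda minus kappa gave 60 to 73 genes and 5 to 16 tags, with 5 tags without WT 2. Counts moved by over 1.5 times without R594C/R594C 1 (B1-like 4, follicular-like 13, marginal zone-like 2), R594C/R594C 2 (follicular-like 15), WT 4 (B1-like 6, follicular-like 14, marginal zone-like 5, plasma cell-like 8), WT 3 (B1-like 51) and WT 2 (plasma cell-like 37) for R594C/R594C minus WT. For R594C/+ minus WT this happened without R594C/+ 3 or WT 2 (B1-like 5 each), R594C/+ 1 or R594C/R594C 2 (marginal zone-like 31 and 29), and R594C/+ 2 or 3 (plasma cell-like 5 and 4).

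The numbers of the replicates were not shown to pair the samples: 2 of 8 same-number pairs had a correlation of their deviations over 0.1, from -0.106 to 0.395, and 4 of 10 replicates correlated best with their own number. This check cannot settle it, because the deviations of the 2 R594C/R594C replicates are exact opposites. The highest value, of WT 2 with R594C/R594C 2, joins replicates that are also both high in Xist. With the number as a replicate block, R594C/+ minus WT gave 63 genes in follicular-like, 32 in marginal zone-like, 14 in B1-like and 25 in plasma cell-like cells. R594C/R594C minus WT gave 32, 5, 25 and 21. With this block the trends of the lambda share were -0.162 points per allele in follicular-like, 0.745 in marginal zone-like, 0.977 in B1-like, 2.18 in transitional-like and -1.32 in plasma cell-like cells, and the usage trends were -6.85 for Iglc1, 5.97 for Iglc2 and 0.885 for Iglc3. None was called.

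The trends in lambda share that missed the threshold also changed sign. In B1-like cells the slope was -0.0641 when 1 lambda gene had to exceed Igkc, -1.09 with the 80% and 20% rule, -0.994 as a share of summed UMIs and -7.98 in replicates high in Xist. In follicular-like cells it was -0.316 by 1 lambda gene, -0.315 with the 80% and 20% rule, -0.120 from 10 light chain UMIs, -0.0927 with hashtags called by margin and -0.235 in replicates high in Xist. In marginal zone-like cells it was -0.777 in replicates high in Xist. In plasma cell-like cells it was 0.0584 by margin, 0.132 with the 80% and 20% rule, 0.164 thinned to 5 UMIs and 0.760 in replicates low in Xist. Slopes in replicates high in Xist are fixed by R594C/R594C 2 against WT 2 alone. Among those low in Xist R594C/R594C 1 is the only replicate with the allele. In transitional-like cells the slope was called at 2.98 with free RNA subtracted. Leaving out each replicate gave 1.09 to 6.49 in B1-like, -0.277 to 0.256 in follicular-like, 0.1002 to 1.63 in marginal zone-like, -2.35 to 2.07 in plasma cell-like and 1.60 to 3.36 in transitional-like cells.

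Differences from follicular-like cells lost the call in replicates split by Xist, where fewer samples remain: 11.6 and 4.28 points (high and low) for B1-like, 2.90 and 0.728 for marginal zone-like and 11.3 and 12.9 for transitional-like cells. The lost calls cannot be read as weaker differences. Among replicates low in Xist the smallest possible exact p lies above the threshold. Among those high in Xist a call needs most of the comparisons at their smallest possible p. The marginal zone-like difference was also not called with doublets kept (1.80) or hashtags called by margin (1.98). The plasma cell-like difference was 0.957 by 1 lambda gene, 2.24 with the 80% and 20% rule and 0.406 in replicates high in Xist, and was called at -9.71 for summed UMIs and -4.10 when thinned. Without each replicate the differences were 6.55 to 9.88 (B1-like), 1.66 to 2.42 (marginal zone-like, lost in 7 of 10), -1.49 to 0.239 (plasma cell-like) and 11.4 to 12.5 points (transitional-like). The usage trends of follicular-like lambda cells were called from 10 UMIs (-9.13 for Iglc1, 6.93 for Iglc2) and by margin (-7.32 and 6.05), and Iglc2 was at -0.449 with the 80% and 20% rule and -0.0106 in replicates high in Xist. Without each replicate they ran from -9.07 to -5.20 for Iglc1, 4.74 to 7.65 for Iglc2 and -0.176 to 2.67 for Iglc3.

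Of single genes and tags on the log2 scale, DESeq2 put the IgM tag at 0.0151 and Iglv3 in B1-like minus follicular-like cells at 0.0103, and the 80% and 20% rule put the Ly6A_Ly6E tag at 0.0195, each against a negative value in the analysis reported. Without each replicate, Iglv3 in B1-like cells ran from -0.148 to 0.126 (above 0 without R594C/R594C 1, R594C/R594C 2 or WT 1), and Iglv1 in marginal zone-like cells from -0.0536 to 0.188 (under 0 without R594C/+ 1, R594C/+ 3 or WT 2). Light chain calls outside plasma cells rest on few UMIs per cell, and plasma cell shares on few lambda cells.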

Other observations

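Kappa plasma cell-like cells also held lambda V segment transcripts. An Iglv1 UMI was found in 641 of 811 kappa plasma cells (79.0%) and an Iglv3 UMI in 463 (57.1%), at a median depth of 17751 RNA UMIs. Against 100 Iglc1 UMIs, kappa plasma cells held 51.3 Iglv1 UMIs, from 36.9 to 87.6 over the 10 replicates, while lambda plasma cells held 0.775. In the other named B cell classes tabulated the ratio was between 0.797 and 1.82. The lowest replicate for kappa plasma cells, 36.9, lay above the highest for lambda plasma cells, 1.74.

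The lambda share was also read by subcluster, with no test. In the B1-like subcluster led by S100a6 and Ctla4 it was 19.1% (165 of 864 cells, exact binomial interval 16.5% to 21.9%, counting error only), and in the one led by Fcer1g, Nt5e and Bhlhe41 it was 11.8% (91 of 772). The IgM-rich plasma subcluster held 3.01% (16 of 531) and the subcluster rich in IgG and IgA transcripts 7.79% (25 of 321). An unnamed subcluster of dividing cells with plasma cell genes held 10.9% (24 of 221). These values pool the replicates, which differ in number of cells: WT 2 gave 39 of the 165 lambda cells of the first B1-like subcluster. By replicate that subcluster had the higher share in 8 of 10, and the lower in WT 3 (4.0% against 4.76%) and WT 4 (3.33% against 8.05%).

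Over 29 cell classes and 11446 genes, the genes whose mean log2 level was most like that of Igkc were Cacna1h (Pearson r = 0.903), 4933404K13Rik (0.898), Derl3 (0.893), Oosp1 (0.873) and Gm34215 (0.871), each highest in plasma cell-like cells. Most like the sum of Iglc1, Iglc2 and Iglc3 were Gm34215 (0.916), Dennd5b (0.898), A530030E21Rik (0.896), Gm30211 (0.884) and Myzap (0.874). Of these Gm34215 and Gm30211 were highest in plasma cell-like cells, Dennd5b in B1-like cells, and A530030E21Rik and Myzap in a plasmacytoid dendritic-like cluster of 149 cells (6 of 6 fixed markers). In that cluster the lambda sum was at 10.37 on the log2(CPM + 1) scale, against 6.04 to 8.86 in the other clusters outside the B lineage and 10.88 in follicular-like B cells, while Igkc was at 10.73 against 13.12 in follicular-like B cells. The classes share their libraries and free RNA.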
